A study of Arabidopsis thaliana with 9 samples.

Results

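The wild-type anther transcriptome of Arabidopsis thaliana is described here by expression level, from 3 of the 9 arrays of a study of anther development. The 3 samples came from Columbia plants with no mutation or treatment, and the labels call them biological replicates. The other 6 arrays, from dyt1 and ams mutants, serve only to show how far the same genes varied within 2 further groups of 3, and no genotype was compared with another. Plants 3 to 4 weeks old had grown at 22 °C with 16 hours of light and 8 of darkness, and anthers of stages 4 to 7 were dissected from young floral buds. Genes were ranked by the mean of their deposited log2 signal over the 3 arrays, and 13356 genes with a probe set that names a single gene entered the ranking. Nothing in the sources used here says how many plants were pooled in a sample.

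An anther at these stages forms its wall layers and then enters meiosis. The sporogenous cells in the centre of each lobe become meiocytes, and the tapetum, the innermost wall layer, surrounds them and supplies enzymes, lipids and sugars for the later pollen wall. Young anthers are green, and several of their cell types divide and grow while the tapetum is being built, so genes of photosynthesis, central metabolism, division and protein synthesis are commonly active in them.

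Signal on these arrays depends on the probes as well as on the transcript, is not given per length, and carries no detection call. A rank is therefore a rank of array signal and not of molecules per cell. A gene counted as dim had a mean at or under 4.78, the highest lower quartile of the 3 arrays, called the background threshold. This threshold is a quantile of the probe sets and not a measured background, so a dim gene is not shown to be silent. Signal that low was not told apart from background, though single arrays of a dim gene can lie above it. The range of a gene is its highest minus its lowest value over the 3 arrays, so that a range of 1 on the log2 scale is a 2-fold difference of signal. Values in triplets run in the order wild type 1, wild type 2, wild type 3. Anthers hold several cell types, and in such samples fewer cells of a type cannot be told from less RNA per cell.

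Wild type 3 stood apart from the other wild-type arrays before any gene was singled out. Across all genes, which are not independent replicates, its signal correlated at 0.938 with wild type 1 and at 0.930 with wild type 2, against 0.989 between wild type 1 and 2. The 25S ribosomal RNA control read 5.51, 9.59 and 12.45, the actin 3' minus 5' difference 1.25, 1.28 and 2.81, and the mean of the poly-A spike-in controls 3.89, 3.76 and 7.13 on the log2 scale. The 6 mutant arrays had spike-in means of 6.73 to 7.25, so on that measure wild type 1 and 2 were the unusual ones. The ams arrays had 25S readings of 11.59 to 12.42 and actin differences of 2.67 to 2.92, near those of wild type 3. The array medians, at 6.74, 6.75 and 6.88, differed little. Each result below is therefore also read for where wild type 3 lies, and the part of those control differences in any gene's variation was not tested.

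Mean signal over the 13356 genes ran from 3.02 to 13.42, with a median of 6.41 and quartiles at 4.57 and 8.15. The dim genes numbered 3898 (29.2% of all), and 69 genes had a mean above 12. Of the 100 most abundant genes, 80 were known by a locus ID alone and 20 had a symbol, and over all genes 11799 of the 13356 had only an ID. Of these 100 genes, 94 were nuclear and 6 were encoded in the plastid genome. No pseudogene was among them.

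AT5G20290 had the highest mean, at 13.42 ± 0.21 (SD, n = 3), with 13.48, 13.59 and 13.18 on the arrays. AT3G15450 followed at 13.45, 13.32 and 13.43, and AT3G09200, at rank 5, read 13.25, 13.25 and 12.92. Wild type 3 was the lowest array for the first and the last of these and lay between the others for AT3G15450. AT5G62080 read 13.45, 13.17 and 12.45, and AT3G52130 read 13.37, 13.04 and 12.38, so both were lowest in wild type 3. AT5G07230, at 13.02, 12.89 and 13.07, kept within 0.18 over the 3 arrays. Below these came AT5G15200, AT3G60245, AT3G07450, AT1G52300, AT1G67430 and AT1G33430, with means from 12.92 down to 12.74. AT1G01100, AT4G34670, AT5G02870 and AT5G35530 lay between 12.60 and 12.53. AT2G34480, AT4G27090, AT2G47610, AT3G02080, AT3G24830, AT3G09630, AT3G49910 and AT2G01250 closed the first 30 with means from 12.47 to 12.36. The tables used here give these 24 genes no name, and none is described by a function.

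**Figure D1:**
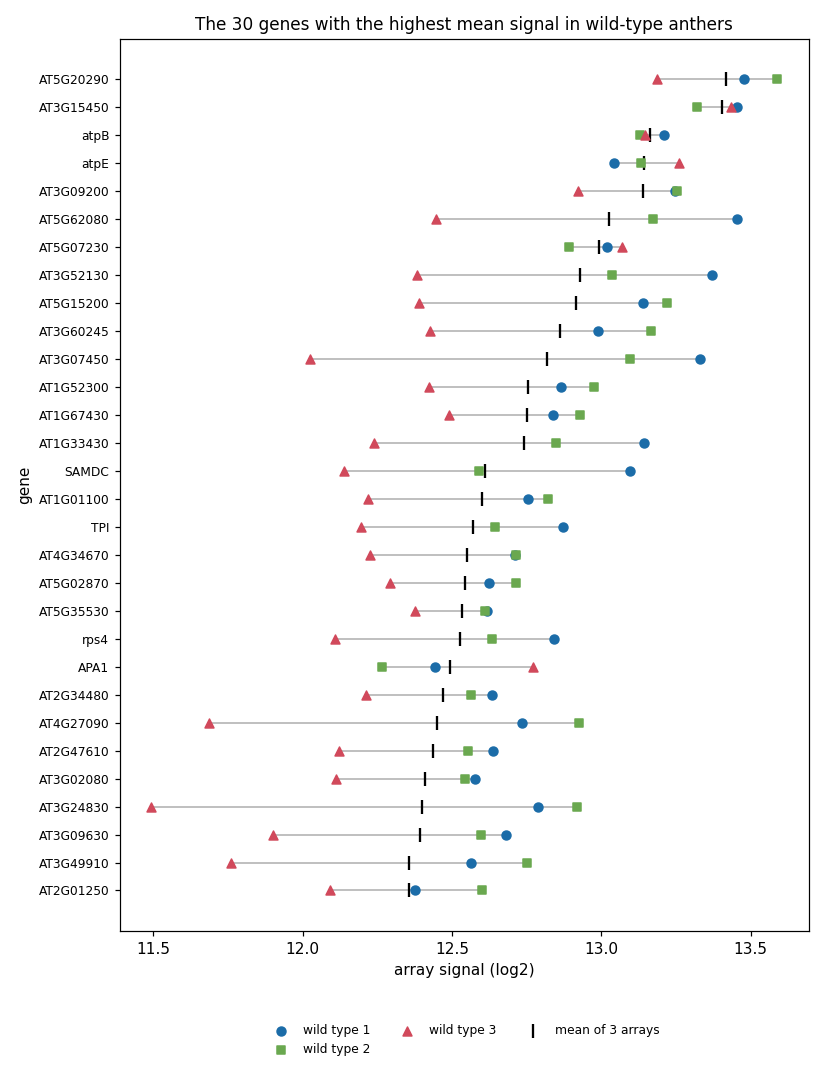
Array signal on the log2 scale (horizontal axis) of the 30 genes with the highest mean signal, from the highest at the top. Circles, squares and triangles are wild type 1, 2 and 3, and the short bar is their mean; wild type 3 was the lowest array for 25 of the 30 genes.

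The strongest signals with a symbol were plastid genes. atpB and atpE, which encode the beta and epsilon subunits of the chloroplast ATP synthase, are neighbours that are transcribed together in plants. atpB read 13.21, 13.13 and 13.15, a mean of 13.16 ± 0.04 (SD, n = 3), and atpE read 13.04, 13.13 and 13.26, a mean of 13.14 ± 0.11 (SD, n = 3). Neither differed by more than 0.22 between arrays. rps4, for a protein of the small plastid ribosomal subunit, read 12.84, 12.63 and 12.11. psaB, for a core protein of photosystem I, read 12.34, 12.33 and 11.77. For both, wild type 3 was the lowest array. petB, for cytochrome b6, read 12.35, 12.57 and 11.37, and psbM, for a small photosystem II subunit, read 12.59, 12.95 and 10.22. psbM was the least stable of the 100 most abundant genes.

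Metabolic enzymes made up much of the remaining named set. SAMDC, the S-adenosylmethionine decarboxylase of polyamine synthesis, read 13.10, 12.59 and 12.14. TPI, the triose phosphate isomerase of glycolysis, read 12.87, 12.64 and 12.19. Both were highest in wild type 1 and lowest in wild type 3. cICDH, a cytosolic NADP-dependent isocitrate dehydrogenase, was nearly flat at 12.24, 12.22 and 12.37. GAPC2, a cytosolic glyceraldehyde 3-phosphate dehydrogenase, read 12.29, 12.42 and 11.82, and ACLA-1, a subunit of the ATP-citrate lyase that makes cytosolic acetyl-CoA, read 12.01, 11.90 and 11.44. CYTC-1, a cytochrome c of the respiratory chain, read 12.22, 12.42 and 11.98.

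Proteins of protein turnover and folding were also among the 100. APA1, an aspartic protease, read 12.44, 12.27 and 12.77, and SCPL49, of the serine carboxypeptidase-like family, read 11.86, 11.65 and 11.98. Both were highest in wild type 3, unlike most of the 100. CRT1b, a calreticulin of the endoplasmic reticulum, read 12.08, 12.06 and 11.50. PGY1, a protein of the large cytosolic ribosomal subunit, read 12.06, 12.23 and 11.26 and was lowest in wild type 3. LHCB4.1, an antenna protein of photosystem II encoded in the nucleus, read 12.31, 11.87 and 12.10. LCR69, a defensin-like peptide, read 12.03, 12.08 and 11.38. CCL, named as a CCR-like gene, read 12.03, 11.30 and 12.18, and DI19, known as drought-induced, read 11.54, 11.45 and 12.26. AT4G01150, which RefSeq lists with the synonym CURT1A for a protein that curves thylakoid membranes, had a mean of 11.92 ± 0.13 (SD, n = 3). AT1G74470, listed with the synonym geranylgeranyl reductase, an enzyme of chlorophyll and tocopherol synthesis, read 12.10, 11.68 and 11.82. These last 2 genes were named from synonyms after their values were seen.

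The edge of the 100 was not a step in signal. AT3G11630 at rank 100 had a mean of 11.73, with 11.98, 12.02 and 11.18, and the next gene, the plastid gene ndhI for a subunit of the NDH complex, had 11.71, with 11.68, 11.96 and 11.47. Ranking by wild type 1 and 2 alone kept 89 of the 100 genes. Among those that left were SCPL49, CCL and DI19, whose ranks moved from 87, 86 and 98 to 116, 125 and 148. TUA6, an alpha-tubulin, entered at rank 77 from rank 120, since it read 12.09 and 12.11 on those arrays and 10.40 in wild type 3. In the RefSeq order of the TAIR10.1 assembly, searched on the nuclear chromosomes alone, AT2G27710 and AT2G27720 were the only adjacent genes of the 100. They read 12.20, 12.36 and 11.01, and 12.17, 12.38 and 11.21.

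The 14 nuclear photosynthesis genes with a symbol formed the strongest list, with a median of 10.83 against 6.41 for all genes, and all 14 lay among the 1335 genes with the highest means, the top decile. After LHCB4.1 came PSAE-1, a photosystem I subunit, at 11.97, 11.65 and 11.30. PSBW, of photosystem II, read 11.83, 11.90 and 10.93, and RCA, the activase of Rubisco, read 11.77, 11.29 and 11.44. LHCB4.3, the dimmest of the 14, still read 9.94, 9.70 and 9.83. None of the 14 had a range over 1, against 18.2% of all genes. The function lists and named families hold only genes with a symbol. All 1557 genes with a symbol had a median of 7.36, with 16.7% in the top decile. Of these 1557, 19.1% were dim and 22.4% had a range over 1.

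Central carbon metabolism, with 22 genes, had a median of 10.02, and 14 of the 22 lay in the top decile. Behind TPI, cICDH, CYTC-1, GAPC2 and ACLA-1 stood MAB1, a subunit of the mitochondrial pyruvate dehydrogenase, at 11.23, 11.07 and 10.71. Paralogues were far apart: SDH1-1, the main flavoprotein of succinate dehydrogenase, read 10.80, 10.57 and 9.71, whereas SDH1-2 was dim at 4.07, 3.90 and 3.84. PDC2, a pyruvate decarboxylase, read 9.37, 9.03 and 7.79 and had the second largest range of the list after IDH-III, at 4.70, 4.47 and 6.64. Those 2 moved in opposite directions in wild type 3. The 8 aldehyde dehydrogenases had a median of 10.25, with ALDH6B2 at 11.31, 10.88 and 11.08 and ALDH7B4 at 10.81, 10.68 and 11.75, and none of them was dim.

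Genes of division and chromatin were well above the general median. The 19 measured ones had a median of 9.05, and 7 were in the top decile. HTB4, a histone H2B, read 11.42, 11.65 and 11.57, and HTB1, another, read 10.86, 11.12 and 10.20. HON4, named for linker-type histones, read 10.38, 10.43 and 10.78. 3xHMG-box2, a protein of mitotic chromosomes, read 10.41, 10.96 and 9.68, and its relative 3xHMG-box1 read only 5.08, 6.03 and 4.48. The 9 tubulins and actins had a median of 8.99, led by TUA6, with TUB9 at 10.37, 10.55 and 9.34 and TUB7 at 10.34, 10.48 and 8.71.

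Protein quality control was represented at a similar height. The 20 chaperones and folding factors had a median of 8.36, led by CRT1b, with ATERDJ3B, a co-chaperone of the endoplasmic reticulum, at 10.91, 11.10 and 10.04, and Cpn60beta2, a chloroplast chaperonin subunit, at 10.63, 10.49 and 10.28. The 12 ubiquitin-conjugating enzymes had a median of 9.30, with UBC28 at 11.19, 11.18 and 11.39 and UBC22 at 10.58, 10.67 and 10.93. The 9 proteins of the ATG8 family, which build autophagosome membranes, had a median of 9.08, with ATG8F at 10.52, 10.16 and 11.11. None of the 9 was dim, and no range among them exceeded 1. The 7 enzymes of leucine and lysine breakdown had a median of 9.21, with the methylcrotonyl-CoA carboxylase subunits MCCB, at 11.08, 10.35 and 11.98, and MCCA, at 11.03, 9.96 and 11.71, on top.

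Families of extracellular and transport proteins differed in their spread. The 15 SWEET sugar transporters had a median of 7.85, none was dim, and 4 lay in the top decile. Of these 4, SWEET8, which is needed for pollen wall formation, read 11.18, 11.42 and 12.44, and SWEET3 read 11.18, 10.72 and 11.51. SWEET16, the weakest of the 15, had a mean of 4.83. SWEET8 was highest in wild type 3, but 10 of the 15 were lowest there (45.0% of all genes were), and 6 were over 1 below the mean of the others with 2 over 1 above it. Of the 8 defensin-like proteins named LCR, 5 were dim, against 29.2% of all genes, the strongest of these being LCR72 at 4.47, 4.61 and 4.61, while LCR69 had a mean of 11.83. RALFL34, a secreted signalling peptide, read 11.63, 11.62 and 11.01, in a family of 10 of which 5 were dim. The 29 serine carboxypeptidase-like proteins had a median of 5.72, and the 18 expansins, which loosen cell walls, had one of 5.16. SCPL49 and scpl25, at 10.90, 11.07 and 10.91, led the former. EXLA1, at 9.46, 9.32 and 10.86, led the latter.

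Pseudogenes and some families of specialised proteins had lower medians. The 989 nuclear pseudogenes had one of 3.98, and 793 of them were dim, against 29.2% of all genes. The 19 cytochromes P450 named CYP71B had a median of 4.25 with 13 dim. The 47 UDP-glycosyltransferases had one of 5.33 with 17 dim (36.2%), near the share of all genes. CLE peptides had a median of 4.55 with 4 dim of 6, and CHX cation exchangers one of 4.75 with 5 dim of 7.

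**Figure D2:**
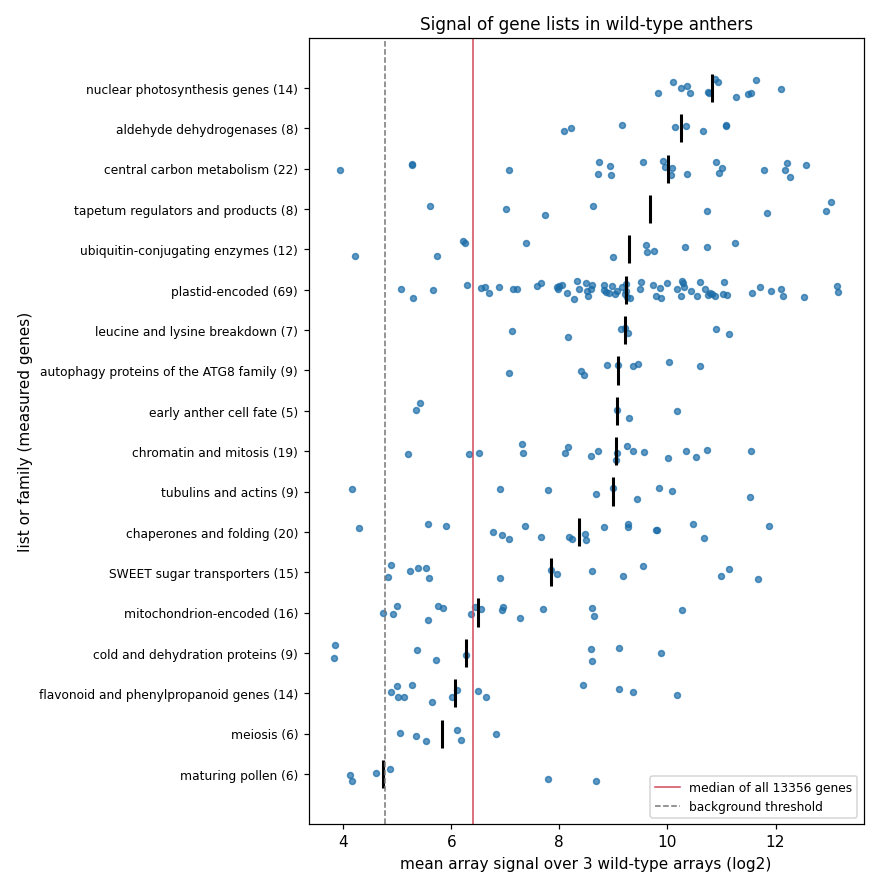
Mean signal on the log2 scale over the 3 wild-type arrays (horizontal axis) for lists and families of genes, ordered by median. Points are genes, black bars list medians, the red line the median of all genes (6.41) and the dashed line the background threshold (4.78); of the lists drawn, the nuclear photosynthesis genes had the highest median and the genes of maturing pollen the lowest.

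Markers were read to check the tissue label, as far as the annotation names them. A listed gene counts as measured only if it was found by symbol, synonym or listed locus ID. The list totals count the names searched, some of which are aliases of the same gene. Other listed genes may lie on the array under a locus ID alone. For the 20 names of early anther cell fate, 5 genes were measured. EMS1, the receptor kinase that specifies the tapetum, read 10.21, 10.59 and 9.73. SPL, also called SPOROCYTELESS, which starts sporogenous cells, read 9.59, 9.52 and 8.78, and ROXY2, a glutaredoxin of anther lobe formation, read 8.98, 9.75 and 8.47. These 3 stood well above the general median and were lowest in wild type 3. The floral regulators JAG, at 5.20, 5.08 and 5.97, and ROXY1, at 5.25, 5.27 and 5.55, were lower. UFO, the only measured gene of 11 for floral organ identity, read 4.72, 4.67 and 5.39.

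For the 37 names of the tapetum list, 8 genes were measured, and none was dim, against 29.2% of all genes. AMS, a bHLH factor of the tapetum, read 7.93, 7.70 and 7.55. BETA-VPE, a vacuolar processing enzyme, read 6.93, 6.74 and 7.38, and UND, an aspartic protease linked to tapetal cell death, read 4.98, 4.54 and 7.29. ATA27, a beta-glucosidase named for the anther, read 7.16, 7.13 and 11.59. There are 4 listed loci with no name in the tables used here. Beside AT5G62080 and AT3G52130, given above, they are AT1G66850, at 11.84, 11.44 and 12.25, and AT5G52160, at 9.82, 10.51 and 11.87. The means of the list ran from 5.60 to 13.02, and 5 of its 8 genes were highest in wild type 3, against 41.4% of all genes, and 3 were lowest.

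For the 36 names of the meiosis list, 6 genes were measured, with a median of 5.82. ATMND1, a partner in homologous strand exchange, read 7.05, 7.52 and 5.91. RCK, a helicase needed for crossovers, read 6.86, 6.64 and 5.06, and ATSPO11-1, which makes the breaks that start recombination, read 6.27, 6.70 and 5.37. SDS, a meiotic cyclin, had a mean of 5.35 and a range of 1.74. ZYP1b, of the synaptonemal complex, read 6.18, 5.22 and 5.19, and SPO11-2 read 5.44, 5.22 and 4.49. All 6 were lowest in wild type 3, against 45.0% of all genes.

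Markers of other tissues ran from dim, as 29.2% of all genes were, to above the general median. The maturing pollen genes had a median of 4.74 and the carpel and ovule genes one of 5.98, against 5.82 for the meiosis genes. For the 18 names of maturing pollen, 6 genes were measured. AT5G10130, ACT12 and AtVEX1 were dim at means of 4.61, 4.16 and 4.12. MGH3, a histone H3 of the male gamete, read 5.06, 4.96 and 4.57. ACT11, a reproductive actin, read 9.08, 9.23 and 7.75 and TUA1, an alpha-tubulin of pollen, 7.94, 7.81 and 7.62, so that these 2 were present throughout. For the carpel and ovule, 3 of 12 were measured: SPT, or SPATULA, read 7.79, 7.79 and 8.38, INO, of the outer ovule integument, 6.26, 6.05 and 5.63, and NGA1 5.28, 5.46 and 6.07. CLV3, of the shoot meristem, was dim at 4.74, 4.89 and 4.65, and the root hair expansin EXPA7 read 5.38, 5.11 and 4.95. No listed gene of leaf and petal, of the endothecium or of the epidermis was found by name, so these could not be checked.

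Between the 3 arrays, 2437 of the 13356 genes (18.2%) had a range over 1, and the median range was 0.50. Dim genes varied less, with a median of 0.30, than the 9458 others, with 0.61. Among the 2437 genes the extreme array was wild type 3 in most cases: it stood above the others in 1248 and below them in 899. Without wild type 3 the count was 152 genes (1.14%) and the median range 0.16. A range over a pair of arrays cannot exceed that over 3. The like counts were 1753 genes for wild type 1 and 3, with a median of 0.38. For wild type 2 and 3 they were 2023 genes and 0.39. Within the 3 dyt1 arrays and the 3 ams arrays the median range over all genes was 0.43 and 0.31.

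The 100 most abundant genes had a median range of 0.68, and 18 of them exceeded 1, a share close to that of all genes. The most even were AT1G24360, at 11.97, 12.05 and 12.03, and atpB, each with a range of 0.08, followed by AT3G15450, cICDH and AT2G05790, with ranges of 0.13, 0.15 and 0.16. The least even after psbM was AT4G16270, at 12.86, 12.70 and 10.52, a 5.07-fold range. AT4G27450 followed at 11.72, 10.96 and 12.60. It was the only gene among the 100 with wild type 3 over 1 above the mean of the others, against 8.06% of all genes. AT1G44970, AT2G28790, AT3G24830, AT2G27710, AT3G07450 and AT4G27090 had ranges from 1.46 down to 1.24 and, like petB, were lowest in wild type 3. Of the 100, 75 were lowest in wild type 3, against 45.0% of all genes, and 13 were highest there, against 41.4%. With each array centred on its median, 80 were lowest and 9 highest there. The 100 were chosen by the mean of these same arrays, most of which came from the arrays other than wild type 3, which correlated closely. That choice itself favours genes that are lower in wild type 3. The comparisons with all genes, including that for AT4G27450, are therefore not independent of the ranking, and its part in them was not tested. AT3G07450 also varied in the other groups, with ranges of 6.39 within dyt1 and 3.70 within ams.

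**Figure D3:**
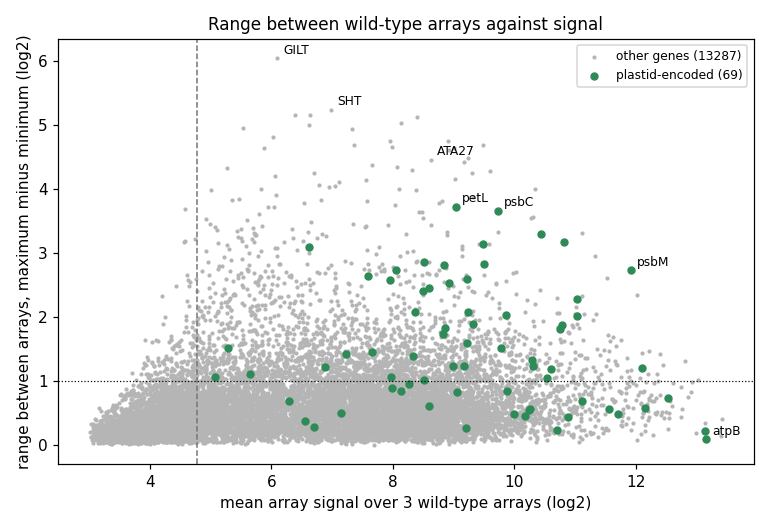
Range over the 3 wild-type arrays (vertical axis, log2) against mean signal (horizontal axis, log2), one point per gene, with the 69 plastid-encoded genes in green. The dotted line marks a range of 1 and the dashed line the background threshold; GILT had the largest range (6.05) and atpB, at the right edge, one of the smallest among strong signals (0.08).

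None of the 100 most variable genes was among the 100 most abundant. Their ranges ran up to 6.05 with a median of 3.74, and 11 had a symbol. In 81 of them wild type 3 stood above the others, with medians of 5.96, 5.55 and 9.42 over these 81 genes. For 22 of the 81 both other arrays were at or under the background threshold, a share near that of all genes (3689 of 13356). In 11 wild type 3 stood below, in 6 wild type 1 stood above, and wild type 2 was the extreme array in 2. The same 100 genes had median ranges of 0.91 within the dyt1 arrays and 1.12 within the ams arrays, arrays that played no part in choosing them. Ranked on wild type 1 and 2 alone, 13 of the 100 stayed among the 100 most variable.

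SHT, a spermidine hydroxycinnamoyl transferase of the tapetum whose products are laid on pollen, read 5.01, 5.69 and 10.25. ATA27, described above, had a range of 4.46, while AMS, AT5G62080 and AT3G52130 of the same tapetum list were lowest in wild type 3. AT5G54010, which RefSeq lists with the synonym UGT79B6 for a UDP-glycosyltransferase, read 4.31, 4.68 and 9.12. For SHT, ATA27 and AT5G54010 the other arrays lay close together and wild type 3 lay more than 4 above both. Of the first 20 genes, 12 further ones known by locus ID alone had the same form. AT5G39910 read 4.86, 5.05 and 10.01, and AT5G13380 read 6.83, 6.61 and 11.74. AT4G37900, AT2G42480, AT2G03740, AT1G66460, AT2G03200, AT2G03850, AT5G16960, AT4G12930, AT3G57620 and AT5G17340 had ranges from 5.03 to 4.48. Several of these reached the level of the most abundant genes in wild type 3 alone: AT2G03200 read 8.23, 7.78 and 12.46 and AT5G17340 read 8.06, 7.59 and 12.07. Further down, SBT5.4, a subtilisin-like protease, read 6.08, 5.36 and 9.39, LEA18, a late embryogenesis abundant protein, read 4.00, 4.25 and 7.83, and PAP85 read 7.56, 5.67 and 9.48; the last 3 genes lay outside the rule for names.

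**Figure D4:**
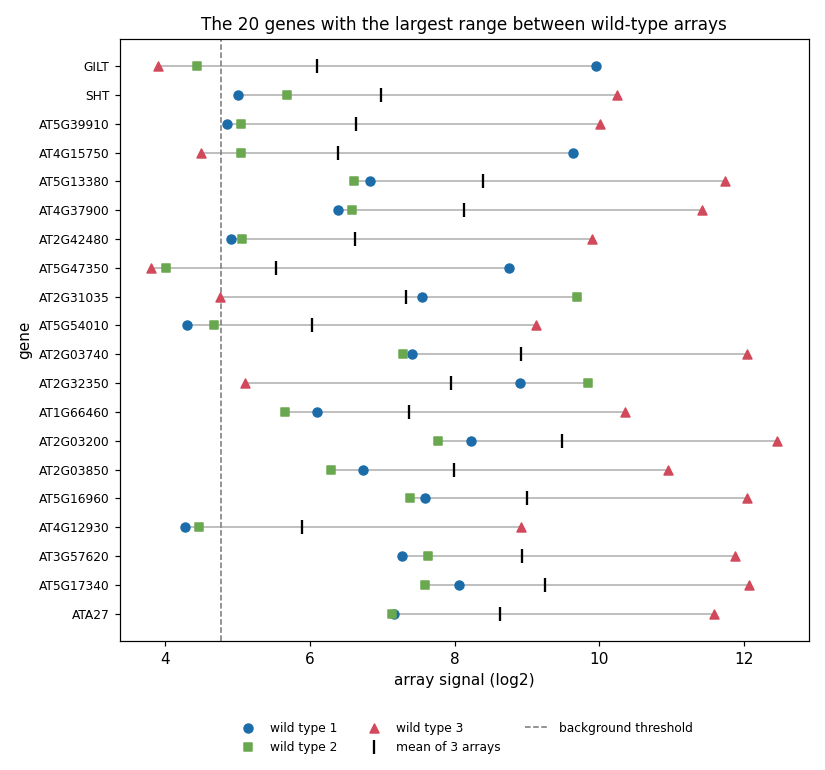
Array signal on the log2 scale (horizontal axis) of the 20 genes with the largest range, largest at the top. Circles, squares and triangles are wild type 1, 2 and 3, the short bar is the mean and the dashed line the background threshold; wild type 3 lay far to the right in 15 of the 20 genes, and wild type 1 did so in GILT, AT4G15750 and AT5G47350.

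Another form among the first 20 had wild type 3 as the outlying low array. AT2G31035 read 7.55, 9.70 and 4.75 and also differed by over 2 between the first arrays, while AT2G32350 read 8.91, 9.85 and 5.10. Their ranges within dyt1 were 3.39 and 5.51. Among genes with a symbol, TUB1, a beta-tubulin, read 7.95, 8.00 and 4.73. The plastid genes petL, for a small subunit of the cytochrome b6f complex, at 10.10, 10.37 and 6.64, and ndhD, of the NDH complex, at 11.20, 11.70 and 8.40 had the same form. These last 3 were picked with their values in view.

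Plastid-encoded genes varied as a group. Of 69, 45 had a range over 1 (18.2% of all genes did) and 51 were lowest in wild type 3 (45.0% of all genes), with medians of 9.28, 10.01 and 8.49, although atpB and atpE hardly moved. Without wild type 3, 7 of the 69 still differed by over 1 (1.14% of all genes did). The 69 had a median range of 1.24 in wild type, 2.02 within dyt1 and 0.44 within ams. Over all genes it was 0.50, 0.43 and 0.31, and the part of the array controls in this was not tested. Of the 16 mitochondrion-encoded genes, against the same shares, 12 had a range over 1 and 13 were lowest in wild type 3, and without that array 1 differed by over 1. nad2 was an exception at 3.88, 3.56 and 6.78, while cox1, for a subunit of cytochrome c oxidase, read 8.85, 9.29 and 7.80. With the arrays centred on their medians, wild type 3 was lowest for 54 plastid and 13 mitochondrial genes. Nuclear photosynthesis genes had none over 1 and read medians of 11.09, 10.76 and 10.51. Of these 14 genes 9 were lowest in wild type 3, the same direction as most plastid genes. With the arrays centred 12 were lowest there, against 7478 of all 13356 genes. Whether the sets differ was not tested.

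Some lists lay to one side in wild type 3. Beside the 6 meiosis genes, 4 of which were over 1 below the mean of the others (5.27% of all genes were), all but 1 of the 9 tubulins and actins were lowest there, against 45.0% of all genes, and 5 were over 1 below. Wild type 3 minus the mean of the others was -1.70 for both TUB7 and TUA6. Enzymes of leucine and lysine breakdown went the other way: 6 of 7 were highest in wild type 3, against 41.4% of all genes. IVD, the isovaleryl-CoA dehydrogenase, read 9.27, 7.85 and 10.52. Without wild type 3, 2 of the 7 still differed by over 1, against 1.14% of all genes. For IVD and MCCA the array that stood apart was wild type 2, below the others. ATG8 proteins were highest in wild type 3 in 8 of 9 cases, against 41.4% of all genes. All were so by less than 1, and 7 of 9 once the arrays were centred. In the flavonoid and phenylpropanoid list 8 of 14 genes had a range over 1, against 18.2% of all genes, but in both directions. Without wild type 3, 2 of the 14 differed by over 1, against 1.14% of all genes. CHIL, related to chalcone isomerase, at 9.37, 9.73 and 11.45, and UGT78D2, a flavonoid glucosyltransferase, at 8.18, 8.54 and 10.57, were highest in wild type 3, HCT, a shikimate hydroxycinnamoyl transferase, at 9.73, 9.17 and 9.17, was not, and UGT78D1 was even at 8.33, 8.66 and 8.34. GAMMA-VPE, at 9.41, 9.19 and 10.96, and ALPHA-VPE, at 5.27, 5.14 and 6.63, were also highest there. Of the 9 cold and dehydration proteins 5 had a range over 1, and 1 without wild type 3, against 18.2% and 1.14% of all genes. COR47 read 9.93, 8.88 and 10.85 and COR15B 9.49, 9.27 and 7.05.

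**Figure D5:**
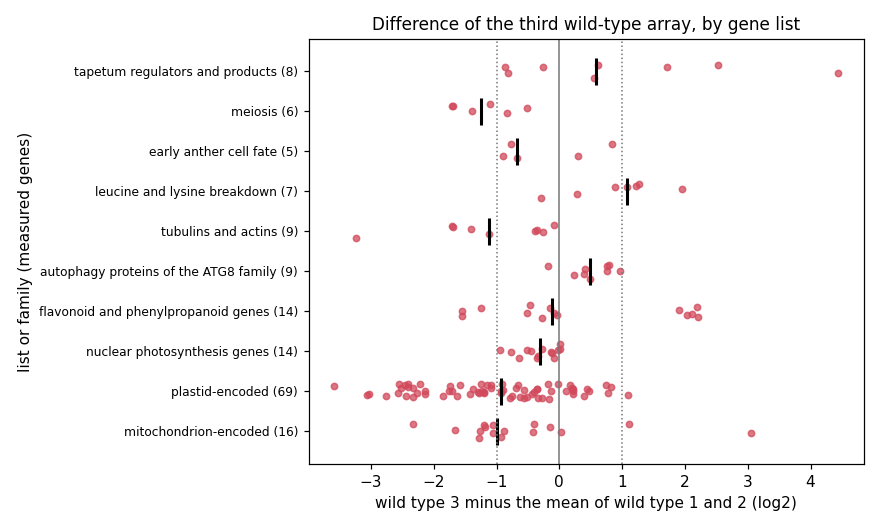
Wild type 3 minus the mean of wild type 1 and 2 (horizontal axis, log2) for the genes of 10 lists. Points are genes, black bars list medians and dotted lines a difference of 1; the 6 meiosis genes all lay below 0, and the 8 tapetum genes spread to both sides with ATA27 farthest to the right.

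A smaller set separated wild type 1 from wild type 2, the closest pair. Of the 152 genes that differed by over 1 between them, 87 were higher in wild type 1 and 65 in wild type 2. GILT, AT4G12960, whose symbol stands for a lysosomal thiol reductase family known from animals, had the largest range of all genes and read 9.95, 4.44 and 3.90. AT4G15750 read 9.64, 5.05 and 4.49 and AT5G47350 read 8.76, 4.01 and 3.81. AT3G49270, AT2G38900, AT1G56100, AT3G19550 and AT4G12890 had the same form, with wild type 1 between 6.30 and 7.59 and the others between 3.29 and 4.52. In 6 of the 100 most variable genes wild type 1 stood above the others. For 5 of these both others were at or under the background threshold, against 3409 of all 13356 genes. The same 6 had a median range of 0.31 within dyt1 and 0.30 within ams. Of the 10 genes with the largest difference, 2 were lower in wild type 1: psbC, of the photosystem II core, read 8.05, 11.70 and 9.44, and AT3G02480 read 5.57, 8.18 and 7.39.

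A few genes of the lists above were also highest in wild type 1. BAN, the anthocyanidin reductase known from the seed coat, read 6.91, 5.21 and 4.82, and DFR, the dihydroflavonol reductase before it in the pathway, read 6.47, 5.11 and 4.23. DELTA-VPE, known from the inner integument of the seed, read 5.33, 4.33 and 4.02. All 3 were highest in wild type 1, and BAN and DFR were named after their values were seen. DELTA-VPE was dim at a mean of 4.56, and its difference between wild type 1 and 2 was just under 1. Most of their lists did not share this form. Of the 4 vacuolar processing enzymes 3 were highest in wild type 3, as were 5 of the 14 flavonoid and phenylpropanoid genes. The ovule marker INO was also highest there, by 0.21 over wild type 2, but SPT and NGA1 were highest in wild type 3. The part of other floral tissue in the differences between wild type 1 and 2 was not tested.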

How the data were processed

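Expression was measured in dissected anthers on Affymetrix arrays. Per the submitters' processing notes the authors used RMA, which corrects background, quantile normalizes and summarises probes; its version and whether all 9 arrays were run together are not given in the sources used. The deposited values are log2 signals per probe set and were used unchanged. Of 22810 probe sets, 64 controls were left out of the ranking. The platform annotation listed 14016 of the other 22746, 13513 of them with 1 gene, 503 with several and 8730 not listed. The 1-gene probe sets gave 13356 genes. A gene with more than 1 (146 genes) was represented by its highest. Symbols came from RefSeq (TAIR10.1), which matched 13286 genes by ID, and 1557 had a symbol.

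Within 1 group there is no contrast, so no test was run and no p-value is given. Lists were described by counts and medians, read against the shares over all genes, and with 3 arrays their precision is limited. Named genes were the 30 highest, the genes on both sides of rank 100, the 20 with the largest range, the 10 largest and 5 smallest ranges among the 100 most abundant, the 10 largest differences between wild type 1 and 2, up to 4 members of a list or family with the highest mean, and every measured marker. Any other gene named was picked with its values in view. The members and lists were chosen with earlier results of these data known. A planned count of ribosomal protein genes among the 100 was not made, since most of these genes carry no name in the tables used. Sequence features were not analysed here, and 1 gene family is not reported here. Ranking and ranges were tested on simulated data. Python 3.11.15, pandas 2.3.3 and numpy 2.4.6 were used.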

Additional observations from a re-analysis of the deposited data

How the results depend on the processing

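The number of genes with a range over 1 and the median range rested on wild type 3. Leaving out each array in turn gave between 152 and 2023 genes and median ranges between 0.16 and 0.39, the lower values without wild type 3. The 100 most variable genes shared between 13 and 89 members with the ranking as reported, 13 without wild type 3, and the 100 most abundant between 89 and 97. Centring, quantile normalization, other choices of probe set, a floor and a filter on dim genes changed none of these 4 results by more than 1.5 times, or beyond the spread between pairs of arrays for the median range. Of 486 alternative list and family medians of level, 27 moved by more than their spread over the arrays, as did 121 of 490 medians of range; the cause was not tested. The difference of wild type 3 was added after seeing the data, and its list medians moved in 66 of 265 cases. No median of over 1 changed direction. No paired analysis was possible because 1 group was described. The planned count of ribosomal protein genes was not run. The array holds no detection calls, so signals at or under the background threshold of 4.78 have no order.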
